A study of Homo sapiens with 6 samples.

Results

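The mRNAs of 10 genes were followed in ME180 cells: AURKA and AURKB, which encode the mitotic kinases Aurora A and Aurora B, INCENP, CDCA8 and BIRC5, which encode the partners of Aurora B in the chromosomal passenger complex, and TPX2, BORA, HASPIN, SGO1 and SGO2, which encode proteins that activate or position these kinases or work beside them at centromeres. The genes were chosen by name for these roles, with earlier results of these data known, and all 10 are among the 58302 genes of the deposited table. ME180 is an established line of human cervical cancer, with epithelial cells. One group of cells received a control siRNA (siControl) and the other an siRNA against the kinase SGK1 (siSGK1), polyA RNA was taken after 48 h, and each group has 3 libraries numbered 2, 3 and 4, which the series calls biological repeats. Every library comes from that 1 cell line and from 1 control and 1 SGK1 siRNA label, with no second siRNA and no rescue among the samples used here. Where the labels do not say how the repeats were grown, p-values measure only the spread between these libraries.

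Aurora A works at centrosomes and spindle poles. BORA helps it to activate the kinase PLK1 before mitosis, and TPX2 binds it, switches it on and brings it to spindle microtubules. Aurora B acts within the chromosomal passenger complex, in which INCENP is the scaffold and activator and survivin (BIRC5) and borealin (CDCA8) hold the complex at centromeres and later at the spindle midzone. Haspin phosphorylates histone H3 and so makes the mark that survivin reads, while the shugoshins SGO1 and SGO2 guard the cohesin that joins sister centromeres. These genes are known for transcription that peaks in G2 and mitosis. DREAM and MuvB complexes act on a promoter element called the cell cycle genes homology region (CHR), and NF-Y binds CCAAT boxes.

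RefSeq promoter windows, from 250 bases before to 50 bases after a start site (GRCh38.p14), were held for 6 of the 10 genes, as 8 windows because AURKB and SGO2 have 2 start sites each. None was held for AURKA, BIRC5, TPX2 and HASPIN. The windows were searched on both strands for the usual form of the CHR, TTTGAA. A second form of the element with a single changed base, TTCGAA, was searched for in the same way and counted together with the first. The box bound by NF-Y was searched for by its letters, CCAAT, also on both strands, and any overlap between matches was allowed. That box was found in 8 of the 8 windows, against 34.6% of 35116 windows of that length over all genes. A CHR was found in 4 of the 8, against 16.4% of all windows. In a list of other G2 and mitotic genes, 16 of 25 windows held a CHR and 16 of 25 a CCAAT box. The 2 windows of AURKB overlap and hold the same CCAAT box, and so do those of SGO2. Counted by gene, 6 of 6 had a CCAAT box and 4 of 6 a CHR. The stretches below, 5′ to 3′ along the gene from 180 bases before to 20 bases from the start site onward, are shown for the 4 genes whose window held a CHR and, for contrast, for AURKB, which rose most and whose windows held none. Capitals mark the CHR and the NF-Y boxes, the latter as their reverse complement where they lie on the other strand.
INCENP (chr11:62123831-62124030, plus strand): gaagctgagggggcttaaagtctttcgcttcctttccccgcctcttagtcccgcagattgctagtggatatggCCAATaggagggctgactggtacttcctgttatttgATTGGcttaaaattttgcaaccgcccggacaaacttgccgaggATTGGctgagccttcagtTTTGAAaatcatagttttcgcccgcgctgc
CDCA8 (chr1:37692336-37692535, plus strand): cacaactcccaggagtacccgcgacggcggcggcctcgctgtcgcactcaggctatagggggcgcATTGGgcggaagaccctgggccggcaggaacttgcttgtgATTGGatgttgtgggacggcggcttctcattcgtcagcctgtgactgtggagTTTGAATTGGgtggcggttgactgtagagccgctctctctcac
SGO1 (chr3:20186187-20186386, minus strand): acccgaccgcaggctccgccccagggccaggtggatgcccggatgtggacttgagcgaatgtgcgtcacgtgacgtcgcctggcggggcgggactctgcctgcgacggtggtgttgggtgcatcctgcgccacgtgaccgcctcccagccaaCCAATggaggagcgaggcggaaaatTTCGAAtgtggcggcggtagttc
BORA (chr13:72727743-72727942, plus strand): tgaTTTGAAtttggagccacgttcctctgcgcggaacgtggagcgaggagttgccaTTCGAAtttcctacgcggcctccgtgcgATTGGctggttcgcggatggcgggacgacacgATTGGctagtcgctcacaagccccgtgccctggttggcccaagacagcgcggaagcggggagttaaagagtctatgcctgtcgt
AURKB (chr17:8210230-8210429, minus strand): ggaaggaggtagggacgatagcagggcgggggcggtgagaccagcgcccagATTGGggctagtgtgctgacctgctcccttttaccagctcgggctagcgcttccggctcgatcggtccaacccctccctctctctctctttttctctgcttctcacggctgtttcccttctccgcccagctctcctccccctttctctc

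In INCENP the CHR lay 10 to 5 bases before the start site, closer to the start than any of its 3 CCAAT boxes. In CDCA8 it lay 23 to 18 bases before the start and shared its last base with the third CCAAT box. SGO1 carried the TTCGAA form across its start site. BORA carried both forms, farther upstream than its CCAAT boxes. No CHR in these letters lay in the windows of AURKB and SGO2, each of which held a CCAAT box. Bases outside the windows were not searched. A match of letters is a description and does not show that a factor binds there.

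Read counts per library for the 10 genes ran from 70 to 7812. Whole reads could be recovered from the deposited FPKM (fragments per kilobase of gene, scaled for library size), and the libraries held 27262794 to 27874948 reads in siControl and 28405647 to 35242643 in siSGK1. The targeted SGK1 mRNA stood at 3.91, 4.27 and 4.17 FPKM in the siControl libraries and at 1.58, 1.70 and 1.81 FPKM in the siSGK1 libraries, 41.2% of the control mean. All 10 epithelial markers were expressed (KRT5 at a mean of 3440 FPKM). By the test given below, 6 of them were called lower, against 22.7% of all tested genes. Among these 6, KRT14 fell from 1388 ± 29 to 541.2 ± 54.8 FPKM (SD, n = 3 each). TP63, CDH1, EPCAM and KRT18 were not called. Leukocyte markers summed to 0.0982 to 0.215 FPKM in siControl and 0.169 to 0.288 FPKM in siSGK1, with none of the 5 reaching a mean of 1 FPKM. Endothelial markers summed to 1.38 to 1.66 and 0.71 to 0.881 FPKM with PECAM1 at 0 reads, and fibroblast markers to 4.70 to 5.25 and 4.87 to 5.72 FPKM, of which COL1A1 had a mean of 5.15 FPKM. The mitochondrial share of reads was 4.25 ± 0.13% for siControl libraries against 3.50 ± 0.14% for siSGK1 libraries (SD, n = 3). The part of the epithelial marker and mitochondrial differences in the results below was not tested.

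All 10 genes were higher after siSGK1, and for each of them every siSGK1 library lay above every siControl library. Such separation upward was found for 24.6% of all 11945 tested genes, those with a mean of at least 1 FPKM. Differences were tested with limma on log2(FPKM + 0.5) over these genes, with Benjamini-Hochberg adjustment, and called at an adjusted p below 0.05. All 10 were called higher and 0 lower, against 17.9% of tested genes called higher and 22.7% called lower. The 10 genes and the lists below were chosen with earlier results of these data known, so such counts are descriptions, to be read beside these shares. SGO1 entered the test only through its siSGK1 level, since its siControl mean was 0.792 FPKM. Each of the other 9 had a siControl mean of at least 1 FPKM. The median log2 change of the 10 was 0.56, between 0.35 for AURKA and 0.98 for AURKB, and that of all tested genes was −0.006. In RNA from whole cultures, more cells in G2 and mitosis and more of an mRNA per cell cannot be told apart.

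**Figure D1:**
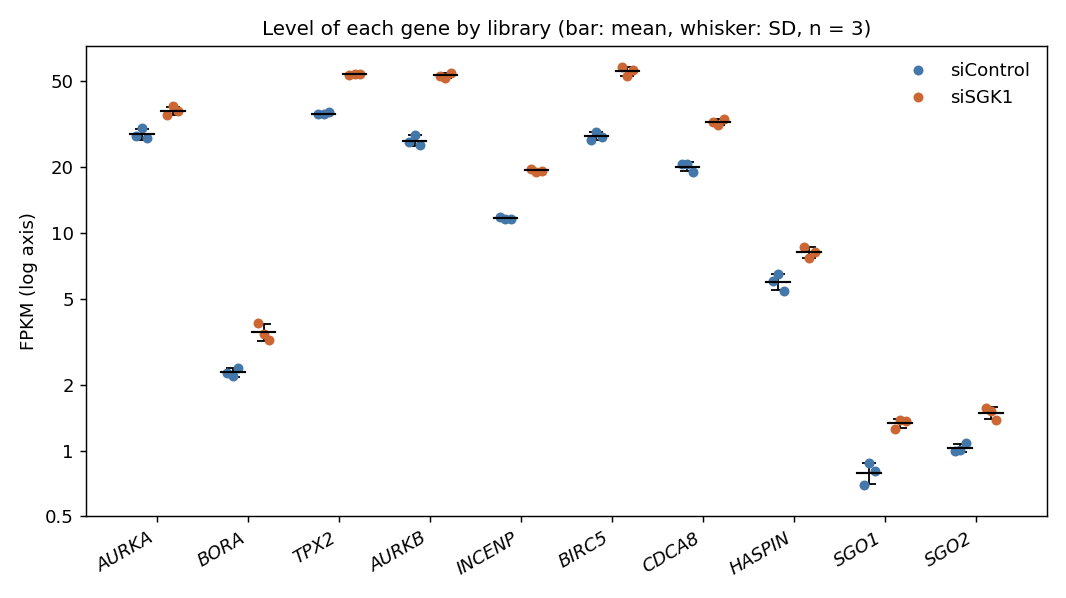
Level of the 10 genes in each library, in FPKM on a log axis, for siControl (blue) and siSGK1 (orange); points are libraries, bars means and whiskers SD (n = 3 each). For every gene the siSGK1 points lie above the siControl points, with the widest gap at AURKB and BIRC5 and the narrowest at AURKA.

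FPKM are scaled to the deposited gene length, which was not checked against the transcripts expressed here. The order of levels across genes given below therefore holds only for that length. In siControl, TPX2 was highest at 35.3 ± 0.5 FPKM. AURKA (28.4 ± 1.6), BIRC5 (27.9 ± 1.2) and AURKB (26.6 ± 1.5) followed with overlapping libraries. CDCA8 and INCENP came next at 20.2 ± 1.0 and 11.7 ± 0.1 FPKM, then HASPIN (5.97 ± 0.52), BORA (2.29 ± 0.11), SGO2 (1.03 ± 0.05) and SGO1 (0.79 ± 0.09), with no overlap between these neighbours (SD, n = 3 each). After siSGK1 the upper end was rearranged. BIRC5 (55.3 ± 2.6), TPX2 (53.5 ± 0.4) and AURKB (52.8 ± 1.5 FPKM) overlapped at the top, and AURKA stood apart below them at 36.4 ± 1.7 FPKM.

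Among the Aurora A genes the kinase itself had the smallest fold change. AURKA (ENSG00000087586, chromosome 20, 56369389 to 56392337, minus strand) measured 27.8, 30.3 and 27.3 FPKM in the siControl libraries and 34.7, 38.1 and 36.3 FPKM in the siSGK1 libraries. The groups did not overlap, and the rise was 1.28-fold (log2 change 0.35, SE 0.06, limma adjusted p = 0.0016). Its spindle cofactor TPX2 (ENSG00000088325, chromosome 20, 31739271 to 31801805, plus strand) measured 35.1, 35.0 and 35.8 FPKM in siControl and 53.0, 53.8 and 53.6 FPKM in siSGK1. Libraries of each group lay within 1 FPKM of each other for TPX2, and the rise was 1.52-fold (log2 change 0.59, SE 0.04, limma adjusted p = 2.10e-05). BORA, the cofactor for PLK1 activation (ENSG00000136122, chromosome 13, 72727749 to 72756198, plus strand), was expressed at a lower level, with 2.27, 2.20 and 2.41 FPKM against 3.87, 3.44 and 3.22 FPKM. Behind these values stood 182 to 207 reads in siControl and 363 to 376 in siSGK1. BORA rose 1.53-fold (log2 change 0.52, SE 0.08, limma adjusted p = 9.53e-04). Exons of BORA share 1180 bases with DIS3 on the other strand, and DIS3 measured 2.85 and 3.05 FPKM in the 2 groups; the sources used here do not give how shared reads were assigned.

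The 4 genes of the passenger complex rose, the kinase and survivin close to 2-fold. AURKB (ENSG00000178999, chromosome 17, 8204733 to 8210600, minus strand) measured 26.1, 28.2 and 25.4 FPKM in siControl and 52.5, 51.5 and 54.4 FPKM in siSGK1. It rose 1.99-fold (log2 change 0.98, SE 0.05, limma adjusted p = 9.28e-06), which ranked 37 among the log2 changes of the 11945 tested genes. BIRC5, survivin (ENSG00000089685, chromosome 17, 78214186 to 78225636, plus strand), measured 26.8, 29.1 and 27.6 FPKM in siControl and 57.5, 52.5 and 55.9 FPKM in siSGK1. That is a 1.98-fold rise (log2 change 0.98, SE 0.05, limma adjusted p = 9.28e-06). For both genes the lowest siSGK1 library stood far above the highest control library, at 51.5 against 28.2 FPKM for AURKB and 52.5 against 29.1 FPKM for BIRC5.

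The scaffold and borealin rose by less. INCENP (ENSG00000149503, chromosome 11, 62123973 to 62153163, plus strand), whose promoter stretch with CHR and CCAAT boxes is shown above, measured 11.8, 11.6 and 11.6 FPKM against 19.8, 19.1 and 19.3 FPKM. Its libraries were the tightest of the complex, and it rose 1.66-fold (log2 change 0.71, SE 0.04, limma adjusted p = 1.45e-05). CDCA8, borealin (ENSG00000134690, chromosome 1, 37692418 to 37709719, plus strand), measured 20.7, 20.8 and 19.0 FPKM against 32.3, 31.2 and 33.5 FPKM. It rose 1.60-fold (log2 change 0.67, SE 0.05, limma adjusted p = 4.16e-05). The germline paralog AURKC, which can replace Aurora B in the complex, lay below the level for testing, with 19 to 39 reads per library in siControl and 28 to 52 in siSGK1. Its FPKM overlapped between the groups (0.376 to 0.743 against 0.489 to 0.806).

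The centromere genes were expressed at lower levels and rose as well. HASPIN (ENSG00000177602, chromosome 17, 3723903 to 3726699, plus strand), the histone H3 kinase, measured 6.05, 6.45 and 5.42 FPKM in siControl and 8.58, 7.70 and 8.15 FPKM in siSGK1. The rise was 1.36-fold (log2 change 0.42, SE 0.07, limma adjusted p = 0.0020). HASPIN shares 427 exon bases with ITGAE on the other strand, whose means were 7.33 FPKM in siControl and 6.11 FPKM in siSGK1. SGO1 (ENSG00000129810, chromosome 3, 20160593 to 20186292, minus strand) measured 0.697, 0.876 and 0.804 FPKM against 1.26, 1.38 and 1.37 FPKM, from 70 to 87 and 142 to 192 reads. SGO2 (ENSG00000163535, chromosome 2, 200510008 to 200583782, plus strand) measured 1.00, 1.01 and 1.08 FPKM against 1.58, 1.52 and 1.38 FPKM, from 158 to 176 and 279 to 305 reads. The folds of mean FPKM were 1.69 for SGO1 and 1.45 for SGO2.

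Because 0.5 FPKM is added before the logarithm, the changes of the 2 shugoshins came out smaller on the tested scale. SGO1 had a log2 change of 0.51 (SE 0.09, limma adjusted p = 0.0027) and SGO2 one of 0.38 (SE 0.08, limma adjusted p = 0.0064). With limma's voom on the recovered reads, where the constant added is 0.5 reads, the log2 changes were 0.76 and 0.52. SGO1 shares 679 exon bases with the antisense gene SGO1-AS1, which had 11 reads over all 6 libraries, and SGO2 shares 61 with KCTD18. Processed copies named AURKAPS1, AURKAPS2, SGO1P1 and SGO1P2 had at most 3 reads in any library.

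Other genes that act with Aurora A moved in part. Of 13 tested regulators and spindle partners 6 rose and 0 fell, with a median log2 change of 0.13. At an unadjusted p under 0.05, and with voom, the counts were 7 and 1. Of all 11945 tested genes, 5868 had an unadjusted p under 0.05, counting both directions. With voom, 2410 of them were called higher and 2969 lower. TACC3, which Aurora A phosphorylates and which stabilises spindle microtubules, rose 1.86-fold from 12.7 ± 0.3 to 23.6 ± 0.5 FPKM (SD, n = 3 each; limma adjusted p = 8.83e-06). The spindle protein HMMR rose from 3.65 ± 0.32 to 6.42 ± 0.34 FPKM, and KPNA2, an importin that holds TPX2 inactive, from 110.5 ± 0.9 to 146.1 ± 3.2 FPKM. PLK1, the kinase that Aurora A activates with BORA, chosen after its values were seen, rose from 28.2 ± 1.1 to 40.0 ± 2.7 FPKM. The centrosomal scaffold CEP192 and the adaptor NEDD9, both activators of Aurora A and likewise chosen afterwards, had log2 changes of 0.13 and −0.04 that did not pass. AJUBA, also chosen afterwards, was the gene of this list that fell at an unadjusted p under 0.05. It measured 81.1 ± 3.5 and 73.5 ± 2.7 FPKM (log2 change −0.14, limma adjusted p = 0.0503).

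Genes that place the passenger complex or oppose it moved in part. Of 16 tested members 8 rose and 1 fell (14 and 0 with TPM scaling, under which 47.3% of all tested genes were called higher), with a median log2 change of 0.15. CDCA2, which brings the phosphatase PP1 to chromatin, rose from 5.92 ± 0.55 to 9.56 ± 0.26 FPKM (log2 change 0.65, limma adjusted p = 1.76e-04). BUB1, whose mark on histone H2A recruits shugoshin, rose from 4.52 ± 0.42 to 7.19 ± 0.15 FPKM, and CDK1, the main mitotic kinase, from 16.96 ± 1.4 to 26.7 ± 1.9 FPKM. The gene that fell was PPP2R5B, a regulatory subunit of the phosphatase PP2A (log2 change −0.38, limma adjusted p = 0.0078). KIF20A, the kinesin that carries the complex to the midzone, measured 40.5 ± 1.4 and 39.2 ± 0.6 FPKM and did not pass; it and PPP2R5B were named after their values were seen.

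Known substrates of Aurora B rose nearly throughout. Of 9 tested members 8 rose and 0 fell, against 17.9% of all tested genes called higher and 22.7% lower. The median log2 change was 0.67, and the counts were the same with voom and at an unadjusted p under 0.05. CENPA, the centromeric histone H3 variant, rose from 11.2 ± 0.1 to 19.1 ± 0.8 FPKM (log2 change 0.74, limma adjusted p = 2.01e-05). The chromokinesin KIF4A rose from 9.61 ± 0.23 to 16.3 ± 0.7 FPKM, and KIF2C, a microtubule depolymerase that Aurora B restrains, from 13.1 ± 0.8 to 21.9 ± 0.6 FPKM. The member that did not pass was the kinetochore subunit DSN1, at 11.9 ± 0.1 and 12.4 ± 1.2 FPKM, and VIM was too low to test.

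Cohesion genes, some encoding the complex that shugoshins protect, moved in part. Of 11 tested 5 rose and 0 fell, with a median log2 change of 0.20, against 17.9% of all tested genes called higher and 22.7% lower. With TPM scaling 10 rose, where 47.3% of all tested genes were called higher. At an unadjusted p under 0.05, and with voom, 6 rose and 0 fell. That unadjusted p was passed by 5868 of all 11945 tested genes, counting both directions. CDCA5, sororin, which keeps cohesin on replicated chromatin, rose from 16.8 ± 1.6 to 26.0 ± 0.2 FPKM (log2 change 0.62, limma adjusted p = 2.30e-04). The cohesin-cutting protease ESPL1 rose from 4.86 ± 0.11 to 6.54 ± 0.26 FPKM and its inhibitor PTTG1 from 107.3 ± 4.3 to 131.2 ± 3.1 FPKM.

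Genes for the turnover of Aurora kinases, BORA and survivin included 4 that rose (7 with total-read or TPM scaling) and 1 that fell among 9 tested. UBE2C and CDC20, which work with the anaphase-promoting complex, rose from 98.9 ± 3.9 to 167.6 ± 2.9 FPKM and from 98.3 ± 3.5 to 129.7 ± 8.7 FPKM. KLHL13, an adaptor of the CUL3 ligase that removes Aurora B from chromosomes, rose from 10.1 ± 0.4 to 12.4 ± 0.3 FPKM (log2 change 0.28). KLHL21, another adaptor of CUL3 for Aurora B, named after its values were seen, was the one that fell, from 9.84 ± 0.19 to 7.58 ± 0.73 FPKM. The list median was 0.11.

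Regulators of G2 and mitotic transcription rose in 7 of 11 tested members and fell in 0, with a median log2 change of 0.17. At an unadjusted p under 0.05, and with voom, 8 rose and 0 fell, where 5868 of all 11945 tested genes passed that unadjusted p in either direction. MYBL2 (B-MYB), which joins MuvB at CHR elements, rose from 63.1 ± 3.2 to 88.2 ± 6.4 FPKM (log2 change 0.48, limma adjusted p = 5.56e-04). FOXM1, which follows it in G2, rose from 15.7 ± 0.7 to 21.1 ± 1.1 FPKM, and RBBP4, a MuvB subunit, from 8.53 ± 0.45 to 11.6 ± 0.4 FPKM. The other tested MuvB subunits, named after their values were seen, were not called, with log2 changes of 0.03 for LIN9, 0.14 for LIN52 and 0.09 for LIN54. Also named afterwards, RBL1 (0.32), E2F1 (0.31), TFDP1 (0.17) and E2F4 (0.14) were called higher and RBL2 (0.16) was not called. The other inhibitor of apoptosis genes did not pass by limma, by voom or at an unadjusted p under 0.05: 0 of 3 tested members were called, against 2 called higher with total-read or TPM scaling, which called 36.1% and 47.3% of all tested genes higher. BIRC2 measured 6.84 ± 0.66 and 7.62 ± 0.48 FPKM, XIAP 3.99 ± 0.36 and 4.42 ± 0.26 FPKM, and BIRC6 2.39 ± 0.22 and 2.50 ± 0.14 FPKM. BIRC3, BIRC7 and NAIP lay below the level for testing. Of these, BIRC3 measured 0.71 ± 0.04 and 0.95 ± 0.18 FPKM, with every siSGK1 library above every siControl library, a separation found for 24.6% of tested genes. The change of survivin was not tested against those of the other inhibitor of apoptosis genes.

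**Figure D2:**
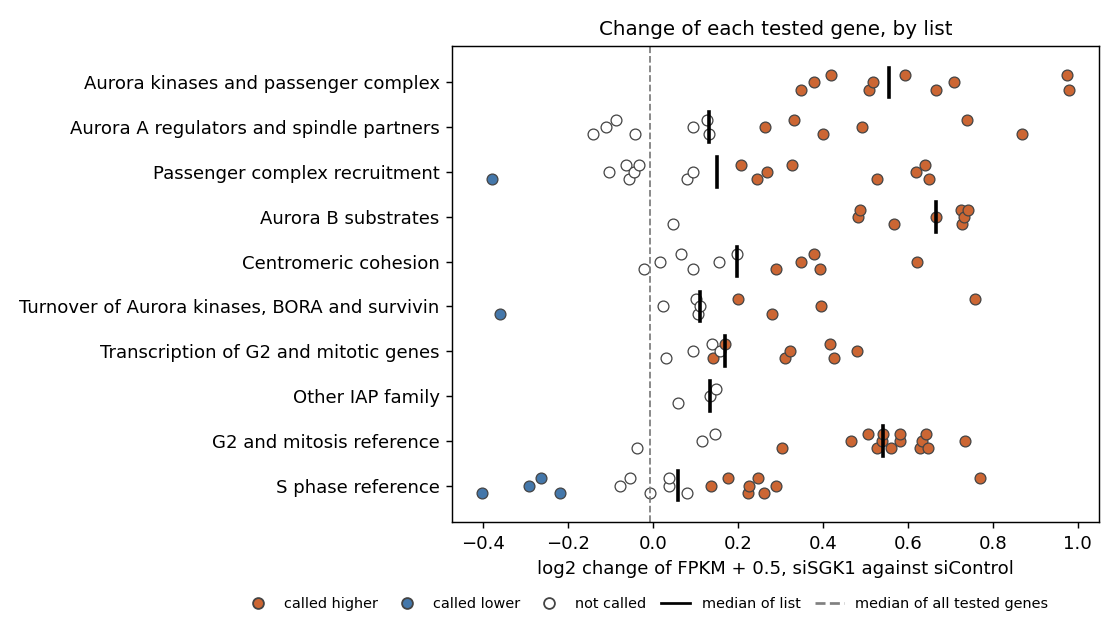
Log2 change of FPKM + 0.5 (siSGK1 against siControl) for each tested gene of the 10 genes described here and of 9 companion lists; orange points were called higher, blue lower and white points were not called, black bars are list medians and the dashed line the median of all tested genes. The 10 genes lie from 0.35 to 0.98 and the 8 called Aurora B substrates within that range, while the S phase points lie on both sides of 0.

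Markers of the cell cycle moved with these genes. In a list of 17 tested G2 and mitotic genes that holds none of the 10, 14 rose and 0 fell, with a median log2 change of 0.54; voom and an unadjusted p under 0.05 gave the same counts. CCNA2 rose from 18.9 ± 1.1 to 31.8 ± 0.8 FPKM, CCNB2 from 38.0 ± 1.3 to 57.0 ± 0.9 FPKM and the midzone protein PRC1 from 16.6 ± 0.4 to 26.0 ± 1.0 FPKM. Of 18 genes of S phase 8 rose and 4 fell, with a median log2 change of 0.06. With TPM scaling, under which 47.3% of all tested genes were called higher, the counts were 14 and 1. Over all tested genes 17.9% were called higher and 22.7% lower, so the share of S phase genes that fell was near that of all genes. RRM2 rose from 8.70 ± 0.20 to 15.2 ± 0.5 FPKM and GINS2 from 26.7 ± 1.2 to 32.1 ± 0.9 FPKM, while the helicase subunit MCM5 fell from 43.5 ± 0.4 to 32.9 ± 3.1 FPKM. The S phase counts moved to 5 risen without siControl replicate 3 or without siSGK1 replicate 4, and to 2 fallen without siControl replicate 3. The part of a shift in cell cycle stage in the changes of the 10 genes was not tested.

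Against these other mitotic genes, AURKB and BIRC5 stood higher after siSGK1 by the widest margin. In each library the mean log2(FPKM + 0.5) of the 17 genes was subtracted from that of each of the 10; the mean of the 17 was itself higher after siSGK1 by 0.48. Relative to it, AURKB was higher by 0.50 and BIRC5 by 0.50. INCENP was higher by 0.23, CDCA8 by 0.19 and TPX2 by 0.11. These are differences from a mean: the log2 changes of the 17 genes themselves ran from −0.04 for CDC25C to 0.73 for CCNA2. That of CCNA2 is above those of INCENP (0.71), CDCA8 (0.67) and TPX2 (0.59). For AURKB, BIRC5, INCENP, CDCA8 and TPX2 every siSGK1 library exceeded every siControl library on this relative scale. Their p was 0.1 in an exact permutation test (two-sided), the lowest that the 3 against 3 design can reach (0.2 after Benjamini-Hochberg adjustment over the 10 genes). The libraries of AURKA overlapped, with a difference of −0.13 (exact permutation p = 0.2). Overlap was also seen for SGO2 (−0.10), HASPIN (−0.06), SGO1 (0.03) and BORA (0.04). The exact permutation p stayed at 0.1 for AURKB and BIRC5 with both other pseudocounts, with quantile, total-read and TPM scaling and against the median of the list. The separation of CDCA8 was narrow (siControl up to 0.417, siSGK1 from 0.425); its exact permutation p was 0.2 with pseudocount 0.1, with TPM scaling and against the list median, and against that median it was 0.2 for INCENP and TPX2 too. SGO2 reached 0.1 in the exact permutation test, as lower, with pseudocount 1 and with quantile and total-read scaling. For the 2 shugoshins, which lie near 1 FPKM, these relative values depend on the constant added before the logarithm. The log2 change of SGO2 itself was 0.49 with pseudocount 0.1 and 0.30 with pseudocount 1, and that of SGO1 0.69 and 0.38. A relative value below 0 on these scales therefore does not show that SGO2 rose by less than the other mitotic genes. SGO1 ranged from −0.077 with pseudocount 1 to 0.197 with pseudocount 0.1 (exact permutation p = 0.1 in both), so it has no settled direction, and BORA also changed sign.

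**Figure D3:**
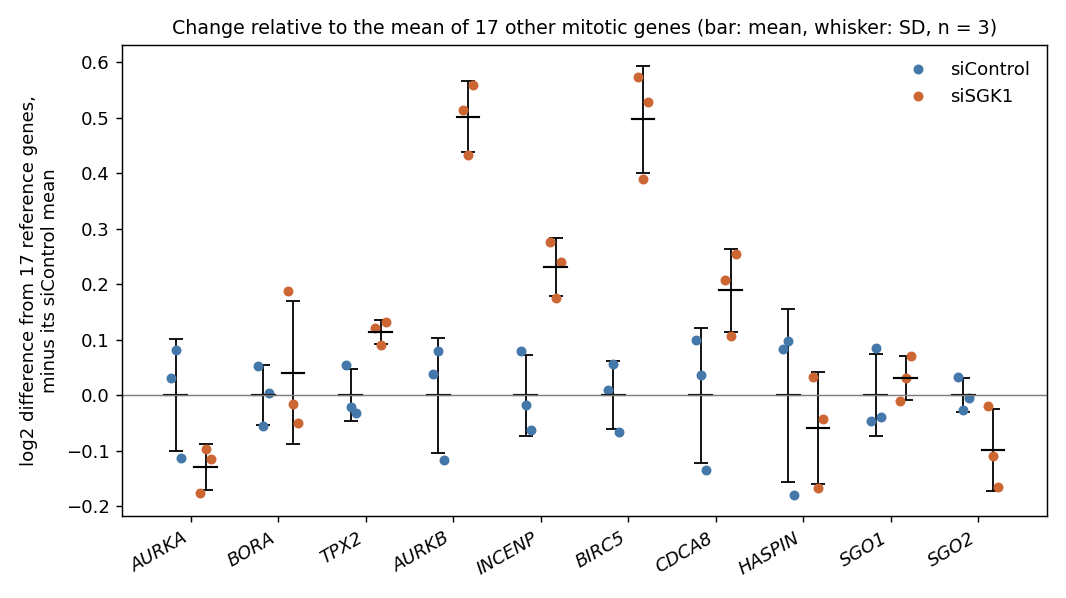
For each gene, the log2 difference from the mean of 17 other mitotic genes in the same library, with the siControl mean of that difference set to 0; points are libraries, bars means and whiskers SD (n = 3 each). The siSGK1 points of AURKB and BIRC5 lie around 0.50 and those of INCENP, CDCA8 and TPX2 above their siControl points, while the 2 groups overlap for the other 5 genes.

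The balance between partners was compared as log2 ratios of FPKM within each library, for 6 pairs. AURKB stood close to AURKA in siControl, with log2 ratios of −0.09, −0.10 and −0.10. In siSGK1 the ratios were 0.60, 0.44 and 0.58, a shift of 0.64. Smaller shifts without overlap were found for BIRC5 to CDCA8 (0.31), AURKB to INCENP (0.26) and TPX2 to AURKA (0.25). The ratio of AURKB to BIRC5 had a mean of −0.07 (SD 0.05) in siControl and −0.07 (SD 0.06) after siSGK1, n = 3 each, a shift of 0.005 that was smaller than the spread between libraries. SGO1 to SGO2 shifted by 0.23 with overlap. The 4 shifts without overlap each gave the smallest exact permutation p of 0.1 (0.15 after Benjamini-Hochberg adjustment over the 6 ratios), so none can pass 0.05 in this design.

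**Figure D4:**
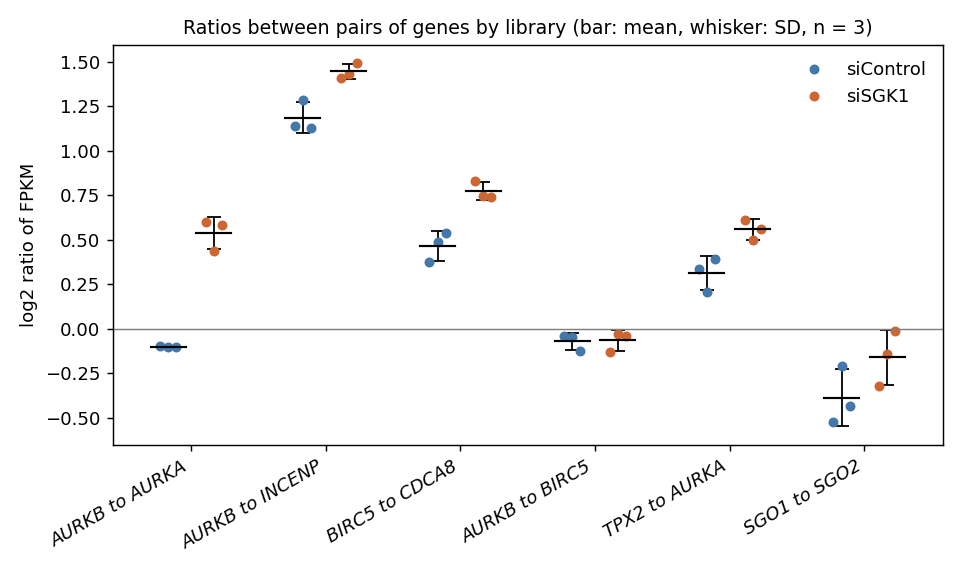
Log2 ratio of FPKM between 6 pairs of genes in each library, siControl in blue and siSGK1 in orange, with bars for means and whiskers for SD (n = 3 each). The pair AURKB to AURKA moves from about −0.10 to 0.54, and the pair AURKB to BIRC5 has overlapping groups near −0.07.

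Over the 6 libraries, AURKB was most like HSP90AB1, LSM7 and STX12 among tested protein-coding genes outside the 10, by Pearson correlation of log2(FPKM + 0.5), and 95 such genes had a correlation of at least 0.99. The likeness is one of shape and reflects the 2 groups: HSP90AB1 had a log2 change of 0.13, LSM7 of 0.26 and STX12 of 0.88. Heptamers that an earlier search of these data tied to changes were also looked up in the longest annotated 3′ UTR of each gene. The word CTATGCA was found in 0 of the 10, against 8.51% of tested genes. The overlapping word TATGCAA (11.4% of tested genes) and the word CGGAGAA (2.45%) were also found in 0 of the 10. The fourth word, TCGGAGA, was in 1 gene, INCENP, against 2.13% of tested genes. Genes with TCGGAGA had a median log2 change of 0.08, and those without it −0.01. For CGGAGAA these medians were 0.07 and −0.01, for CTATGCA −0.08 and −0.003, and for TATGCAA −0.03 and −0.005. Because the words were picked from these same data, these differences are descriptions and not tests.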

How the data were processed

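PolyA RNA of ME180 cells was sequenced in 6 libraries, 3 per group. The authors deposited FPKM per gene and library. The submitters' processing notes list featureCounts 1.5.0-p3, HISAT2 2.0.5, bcl2fastq 2.19 and build hg19; the sources used here do not give the strand setting. The table's gene positions are nevertheless those of GRCh38: all 10 genes match GENCODE 29, as do 97.4% of 58039 shared identifiers. FPKM times gene length was a whole multiple of 1 step for 100% of values (tolerance 0.001), giving whole reads, and the steps equal a scaling by median-of-ratios size factors.

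Values were tested with limma 3.58.1 in R 4.3.3 on log2(FPKM + 0.5) (intensity trend, two-sided) for 11945 genes with mean FPKM of at least 1; the code was tested on simulated data. Single values used exact permutation over libraries. Python 3.11.15 did the rest. Members and lists were chosen with earlier results of these data known. All 10 genes, SGK1 and AURKC are named, then up to 3 genes per list with the smallest p and 3 genes most like AURKB; others are marked. Alternatives were other pseudocounts, filters and scalings, voom, a replicate block and leaving out each library. Promoters are from RefSeq.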

Additional observations from a re-analysis of the deposited data

How the results depend on the processing

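All 10 genes kept a called rise under every alternative in which they were tested (7 with a mean FPKM of at least 5). Log2 changes without 1 library ranged from 0.95 to 1.02 for AURKB and from 0.32 to 0.39 for AURKA, and the largest adjusted p was 0.028, for SGO2 without a level filter. Deviations of same-numbered libraries from their group means correlated at 0.12, 0.01 and −0.10 for numbers 2, 3 and 4. Those of differently numbered libraries correlated at −0.16 to 0.15. With 3 libraries per group, these values cannot show whether same-numbered libraries were handled together. With a replicate block, 10 genes were called (SGO2 limma adjusted p = 0.017) and 2011 genes in all were higher, against 2143. Among called genes, 44.2% were higher on the deposited scale (2143 against 2709 lower), 73.6% with total-read scaling and 82.8% with TPM scaling, which moved the median gene to 0.12 and 0.19; 4309 and 5645 genes were then called higher, and 1282 with a mean FPKM of at least 5. With TPM scaling, counts of risen genes became 14 for passenger complex recruitment (0 fell), 10 for cohesion, 7 for turnover, 2 for other IAP genes and 14 for S phase (1 fell); total-read scaling gave 7 for turnover, 2 for IAP genes and 1 fallen for S phase. With voom, and with a mean FPKM of at least 5, 1 Aurora A regulator fell, and without a level filter 2 S phase genes fell. Without 1 library, 0 to 1 Aurora A regulators fell, and 5 to 8 S phase genes rose and 2 to 4 fell. Relative to other mitotic genes, SGO1 turned to −0.077 with pseudocount 1, −0.050 with quantile normalization and −0.0085 with total-read scaling, against 0.197 with pseudocount 0.1 and 0.134 with TPM scaling. BORA turned to −0.0091 with pseudocount 1 and −0.017 with quantile normalization. Without 1 library BORA ranged from −0.033 (without siSGK1 replicate 2) to 0.086. The AURKB to BIRC5 ratio shift ranged from −0.021 to 0.038 without 1 library, below 0 without siControl replicate 4, siSGK1 replicate 3 or siSGK1 replicate 4. Apart from the added constant, which weighs most on genes of low FPKM, the causes were not tested. Depth limits SGO1 most, with 70 reads in its lowest library.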
